A study of Ovis aries with 12 samples.

Results

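The hippocampus of ewes kept under chronic stress was compared with that of control ewes at its dorsal end, which is tied to spatial memory, over all genes. The members are the 6 dorsal libraries of a series of 12: 3 from control ewes and 3 from stressed ewes, taken by their column names in the deposited count table. Of 33609 genes in that table, 17806 passed the filter on low counts and were tested. The animals were adult ewes of the Ile-de-France breed, 6 in each condition, and every library was an equal mix of RNA from 2 ewes of one condition. The other 6 libraries of the series were made from the ventral hippocampus of the same ewes. No genotype, drug or allele sets the groups apart in the labels, and neither the kind of stress nor its length is given in the sources used here. The submitters define the column prefix DG as dorsal, and the labels leave it unsaid whether only the dentate gyrus was taken. Because the RNA was pooled, the spread between libraries is a spread between pairs of animals, and single ewes cannot be seen.

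Chronic stress acts on the brain through the hypothalamus, the pituitary and the adrenal gland. The hypothalamic peptide CRH drives the pituitary to make ACTH from its precursor POMC, and ACTH makes the adrenal release cortisol. Cortisol enters neurons and binds the mineralocorticoid receptor NR3C2 and the glucocorticoid receptor NR3C1, which then act as transcription factors. The hippocampus is rich in both receptors and takes part in shutting the hormone axis off. In laboratory rodents, prolonged stress is known to reduce the birth of new neurons in the dentate gyrus and to shorten dendrites of CA3 pyramidal cells.

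The libraries were unequal in depth, and depth was aligned with the groups. Total gene counts were 53775720, 43101359 and 24952808 in control libraries 1 to 3 and 21244822, 19159056 and 12254743 in stress libraries 1 to 3. Every control library was therefore deeper than every stress library. The number of genes with at least 1 count ran from 19984 to 21185 in control and from 19813 to 20463 in stress, so that the groups overlapped. With every library thinned to 12254743 counts, 19045, 19853 and 19760 genes had a count in control libraries 1 to 3 and 19386, 19916 and 19813 in stress libraries 1 to 3. Genes with counts in one group alone were 1281 for control and 778 for stress as deposited, and 941 and 1118 after thinning, so that the order of the 2 numbers turned with depth. Levels below are CPM, that is, counts as a share of the library total, scaled to a common size with TMM, a method that sets the bulk of genes equal between libraries. In the library with the fewest counts 1 CPM is 12.3 counts.

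The larger part of the variation lay within the groups. The first principal component of log2 CPM held 61.5% of the variance and placed control libraries 1 to 3 at -81.7, 33.5 and 10.96 and stress libraries 1 to 3 at -69.1, 34.8 and 71.5. Both libraries numbered 1 thus stood apart from the other 4, one in each group. Over all tested genes 86.4% of the variance was within groups. The 33 ribosomal protein genes were highest in both libraries numbered 1 and lowest in stress 3. Their mean deviations were 0.54, -0.27 and -0.03 log2 units in control and 0.45, -0.23 and -0.46 in stress. Deviations from the group mean were shared between same-numbered control and stress libraries for all 3 numbers, although control 2 shared more with stress 3 than with stress 2. What the number stands for is not stated in the labels.

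**Figure D1:**
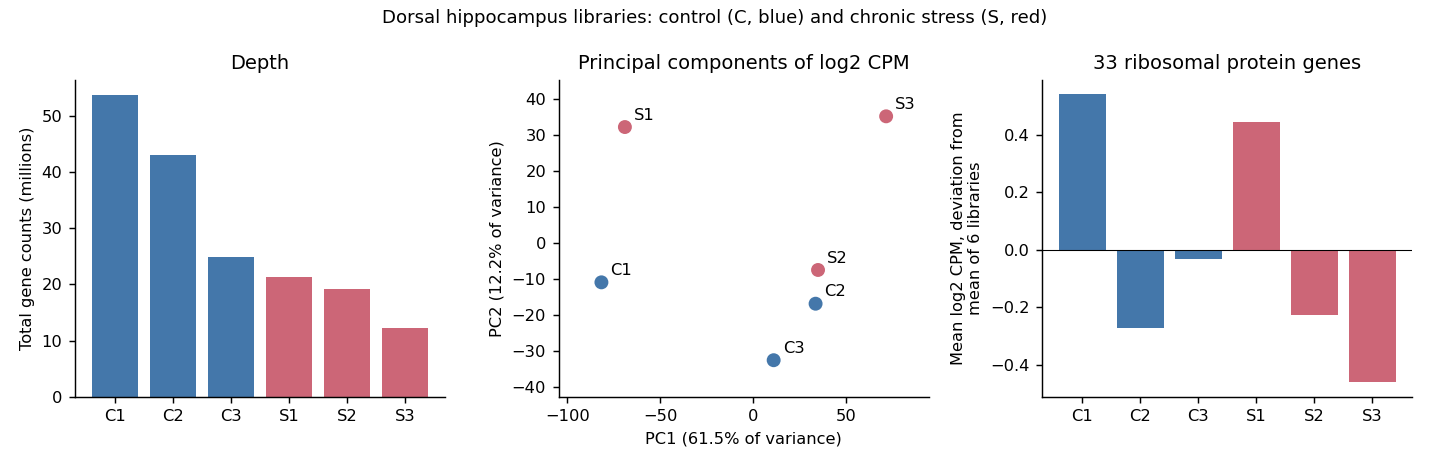
The 6 dorsal libraries, control (C, blue) and stress (S, red): total gene counts (left), position on the first and second principal component of log2 CPM (middle), and mean log2 CPM of 33 ribosomal protein genes as a deviation from the mean of the 6 libraries (right). Every control bar at left is taller than every stress bar, and C1 and S1 lie together at the left of the middle panel, at -81.7 and -69.1.

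Markers of the labelled tissue were present in all 6 libraries. Summed levels ran from 744 to 1031 CPM for the CA1 list, from 300.3 to 351 CPM for the CA3 list and from 535 to 939 CPM for the list of dentate granule cells, the neurons that receive the main cortical input. PROX1, the transcription factor that keeps granule cells in their identity, stood at 4.77, 17.1 and 11.6 CPM in control libraries 1 to 3 and 4.18, 18.2 and 37.2 CPM in stress libraries 1 to 3. It was lowest in both libraries numbered 1, and highest in stress 3. In bulk tissue, fewer cells of a type and less RNA per cell cannot be told apart, which holds for every marker below.

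Across all genes, no difference between stress and control passed the test. Of 17806 genes, 0 (0%) were called at an adjusted p under 0.05 by edgeR, whose quasi-likelihood test was fitted on all 12 libraries with 1 mean for each group; the smallest adjusted p was 1.00. At an unadjusted p under 0.05 there were 152 genes (0.854%), of which 56 (0.315%) were higher and 96 (0.539%) were lower in stress. limma-voom also called 0 (124 at an unadjusted p under 0.05), and DESeq2 called 1, POMC, with an adjusted p of 8.36e-07 (242 at an unadjusted p under 0.05). Every stress library was above every control library for 423 genes (2.38%) and below for 490 (2.75%), together 5.13%. Signs were balanced, with 50.9% of log2 fold changes above 0, a median of 0.01 and quartiles at -0.16 and 0.19. All fold changes below are log2 values of stress minus control, so that a positive value is higher in stress. They come from this fit, in which none passed the adjusted test, unless another is named, and ranges in parentheses are 95% intervals.

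The width of the intervals depended on the level of the gene. The median standard error was 0.40, and the 95% interval of a median gene reached 0.88 log2 units to either side. For 2214 genes above 100 CPM that reach was 1.52-fold, for 8540 genes between 10 and 100 CPM it was 1.62-fold, and for 4548 genes between 1 and 10 CPM it was 2.07-fold. The share with an unadjusted p under 0.05 ran the other way, from 2.36% of 2504 genes under 1 CPM to 0.226% of those above 100 CPM. These are medians in the fit of 12 libraries, and single genes vary around them. In the fit of dorsal libraries blocked by number, given below, the median standard error was 0.19.

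**Figure D2:**
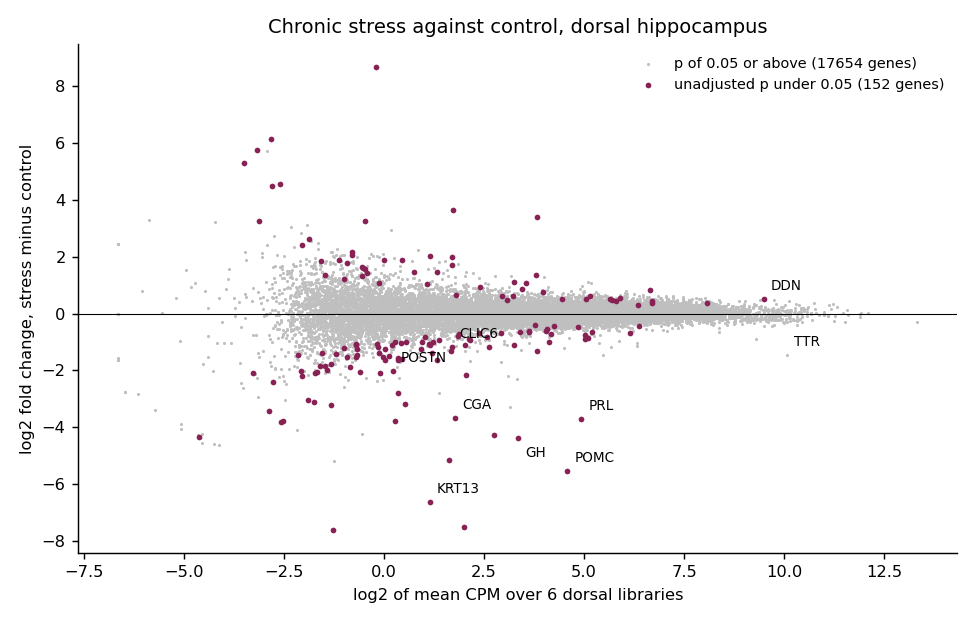
Log2 fold change (stress minus control) of each of 17806 tested genes against the log2 of its mean CPM over the 6 dorsal libraries. The 152 genes with an unadjusted p under 0.05 are drawn dark; POMC, GH, PRL and CGA lie below -3.6, while DDN, at the right, lies at 0.52.

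Of all 40 gene lists, that of the anterior pituitary had the lowest median, -3.66. The list held 10 genes of that gland, of which 7 were tested; 4 of them had an unadjusted p under 0.05, all lower in stress, against 0.539% of all genes. Summed over the tested members, the level ran from 113 to 152 CPM in control and from 5.62 to 12.3 CPM in stress, with no overlap. POMC, the precursor of ACTH, stood at 96.2, 26.8 and 17.4 CPM in control libraries 1 to 3 and at 1.84, 0.456 and 0.654 CPM in stress libraries 1 to 3. These are 4886, 1190 and 445 counts against 37, 9 and 8 counts, so the lowest control library was above the highest stress library by far. The log2 fold change was -5.54 ± 1.01 (SE), a 46.6-fold lower level in stress, with a 95% interval of -7.77 to -3.31 and an unadjusted p of 0.000214. With counts thinned to one depth it was -5.93, and without both libraries numbered 1 it was -5.34.

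PRL, GH and CGA were split between the groups in the same way. PRL, prolactin, stood at 18.7, 59.2 and 91.7 CPM in control and 0.348, 4.92 and 8.01 CPM in stress libraries 1 to 3 (log2 fold change -3.69, 95% interval -7.30 to -0.08). GH, growth hormone, stood at 12.3, 18.0 and 27.9 CPM in control and 0.0498, 1.52 and 1.23 CPM in stress (-4.39, -7.57 to -1.21). CGA, the subunit common to the gonadotropins and thyrotropin, stood at 2.28, 5.64 and 11.1 CPM in control and 0, 0.862 and 0.654 CPM in stress (-3.66, -7.21 to -0.11). For all 3 the lowest value was that of stress 1 and the lowest control value that of control 1, whereas POMC was highest in control 1. GH belongs to a family of close copies, and how reads with several matches were counted is not given in the sources used here.

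All 7 tested members of the pituitary list had negative fold changes, and the remaining 3 overlapped between groups. LHB, the beta subunit of luteinizing hormone, stood at 2.304, 1.62 and 2.74 CPM in control and 2.39, 0.507 and 0.409 CPM in stress, with stress 1 inside the control range (-0.98). Without stress 1 its log2 fold change was -2.25. FSHB, that of follicle-stimulating hormone, had 0.768, 1.64 and 1.17 CPM against 0.895, 0.760 and 1.39 CPM, and these overlapped. PITX1, a transcription factor that defines the gland, was near 0 throughout, at 0.0591, 0.135 and 0.0391 CPM and 0.0995, 0 and 0 CPM. POU1F1 and TSHB had too few counts to be tested. Pituitary hormone RNA was not particular to the dorsal dissections: in ventral libraries 1 to 3, PRL stood at 2.38, 1.04 and 73.8 CPM in control and 1.12, 11.3 and 18.9 CPM in stress, and GH at 0.841, 0.248 and 12.9 CPM and 0.542, 3.95 and 3.31 CPM. The part of pituitary tissue or of hypothalamic neurons in these levels was not tested.

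Same-numbered dorsal libraries deviated together, although control 2 did so more with stress 3 than with stress 2. A fit of the 6 dorsal libraries with the number as a block, chosen after seeing the data, gave a different count. It called 5 of 16785 genes (0.0298%), all lower in stress, while 5.56% had an unadjusted p under 0.05. The called genes were the same 4 hormones and LOC114116170. In that edgeR fit POMC fell with a log2 fold change of -5.54 (adjusted p = 5.17e-07) and PRL with -3.93 (adjusted p = 0.00551). GH (-4.52) and CGA (-3.73) had the same adjusted p of 0.0434 in edgeR. The calls rest on few residual degrees of freedom: with pair 3 left out only POMC and LOC114116170 of these 5 were still called, while with pair 1 or pair 2 left out all 5 were. With all 12 libraries in the fit, the block called 0 genes (299 at an unadjusted p under 0.05), and with the block set within each region it called 0 (433). LOC114116170, an unnamed protein-coding gene that was chosen after its values were seen, stood at 13.8, 8.34 and 15.9 CPM in control and 0.149, 0.608 and 1.31 CPM in stress (-4.26, 95% interval -6.90 to -1.63).

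The naming rule gave 12 lower genes, those with the lowest fold changes among 31 that had a symbol, a mean of at least 1 CPM, an unadjusted p under 0.05 and no overlap between groups. The hormones above are among them. Of the others none was above 12.2 CPM in any dorsal library, and at such levels single libraries weigh most. KRT13, a keratin of stratified epithelia, shows this: it stood at 0.670, 0.135 and 12.2 CPM in control and 0, 0.0507 and 0.0817 CPM in stress, so that control 3 carried its difference, and no fold is given. POSTN, a matrix protein of fibroblasts, stood at 0.788, 1.75 and 3.13 CPM in control and 0.348, 0.608 and 0.409 CPM in stress (log2 fold change -2.02, 95% interval -3.41 to -0.63). FNDC1, a secreted protein with fibronectin domains, had 1.63, 1.75 and 0.860 CPM against 0.647, 0.659 and 0.490 CPM (-1.23, -2.32 to -0.15). Both matrix genes were lower in every stress library than in the lowest control library. CNMD, the cartilage glycoprotein chondromodulin, stood at 5.32, 5.22 and 3.05 CPM in control and 2.14, 1.93 and 1.31 CPM in stress (-1.33, -2.55 to -0.11).

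The remaining lower genes were a small G protein, a lymphocyte GTPase and chloride channel family members. GEM, a GTP-binding protein that restrains voltage-gated calcium channels, stood at 1.32, 2.02 and 2.07 CPM in control and 0.597, 1.27 and 0.735 CPM in stress (-1.05, -1.92 to -0.17). GIMAP6, a GTPase of immune and endothelial cells, had 2.48, 1.28 and 2.15 CPM against 0.895, 1.27 and 0.735 CPM (-1.02), where control 2 and stress 2 nearly touched. CLIC2 stood at 2.03, 2.77 and 2.93 CPM and 0.945, 1.93 and 0.981 CPM (-0.99). CLIC6, which is abundant in the choroid plexus, stood at 5.12, 2.92 and 5.39 CPM in control and 1.94, 1.57 and 2.45 CPM in stress (-1.17, -2.13 to -0.22).

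Choroid plexus markers were mostly lower in stress. The choroid plexus is the epithelium that secretes cerebrospinal fluid and lies against the hippocampus in the ventricle. Of 13 tested markers, 3 had an unadjusted p under 0.05, all lower, against 0.539% of all genes, 9 had negative fold changes and the median was -0.69 against 0.01 over all genes. TTR, transthyretin, its most abundant secreted protein, stood at 2806, 636 and 1236 CPM in control and 361, 415 and 943 CPM in stress. Stress 3 lay above control 2, so the groups overlapped (-1.45, 95% interval -3.41 to 0.52). The value for TTR was -0.71 without control 1 and -0.48 without both libraries numbered 1. The median of the list was -1.16 without stress 3 and -0.47 without both libraries numbered 1. SLC13A4, a sulfate transporter, stood at 84.9, 78.7 and 97.1 CPM in control and 63.9, 51.2 and 47.6 CPM in stress, without overlap (-0.68). It did not follow TTR between regions. Mean levels in ventral and dorsal control were 137 and 86.9 CPM for SLC13A4, and 164 and 1560 CPM for TTR. FOLR1, a folate receptor, had 7.17, 2.88 and 6.72 CPM against 1.99, 2.13 and 3.68 CPM, where stress 3 exceeded control 2 (-1.11). The mean of the list differed by -0.996, -0.61 and -0.14 log2 units (stress minus control) in pairs 1 to 3. A mean of all list members with a count, taken over all 12 libraries of both regions, was also used as a covariate. With it 0 genes were called by edgeR and 1871 had an unadjusted p under 0.05, against 152 without it. What the higher number reflects was not tested.

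Meningeal and matrix markers gave a smaller and less even difference. Of 19 tested members 4 had positive fold changes, 2 had an unadjusted p under 0.05, both lower, against 0.539% of all genes, and the median was -0.19. That median ranged from -0.44 without stress 1 to -0.033 without stress 2, and was -0.45 without both libraries numbered 1. FMOD, the collagen-binding proteoglycan fibromodulin, stood at 12.1, 6.90 and 19.7 CPM in control and 8.06, 5.63 and 4.33 CPM in stress (-1.09). COL6A3, a chain of collagen VI, stood at 18.3, 22.8 and 18.8 CPM and 10.1, 12.4 and 17.2 CPM (-0.60), and its groups did not overlap. The summed level of the list ran from 1188 to 2583 CPM in control and from 1055 to 2462 CPM in stress, so that it overlapped almost fully. Whether unequal amounts of choroid plexus or meninges in the dissections contributed to the lower genes was not tested.

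The 12 higher genes that the naming rule gave had log2 fold changes from 0.43 to 0.95. DDN, dendrin, a protein of dendrites and the postsynaptic density, stood at 568, 555 and 649 CPM in control and 871, 812 and 854 CPM in stress (log2 fold change 0.52, 95% interval 0.09 to 0.94). CAMK1G, a calcium and calmodulin-dependent kinase of neurons, stood at 43.6, 42.0 and 44.3 CPM in control and 68.0, 55.5 and 58.8 CPM in stress (0.49, 0.16 to 0.81). For both genes each stress library was above all control libraries. PLXND1, a receptor for semaphorins in axon and vessel guidance, stood at 24.6, 28.3 and 31.0 CPM in control and 42.7, 41.2 and 45.8 CPM in stress (0.63, 0.22 to 1.04). ZDHHC14, an enzyme that attaches palmitate to proteins, had 24.99, 26.2 and 29.98 CPM against 38.6, 37.6 and 41.1 CPM (0.53, 0.17 to 0.89). MPPED1, used here as a CA1 marker, stood at 50.1, 43.4 and 50.5 CPM in control and 73.5, 67.3 and 69.6 CPM in stress (0.55, 0.11 to 0.99).

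Other named genes on this side were a phosphatase inhibitor, signalling proteins and zinc finger factors. PPP1R17, an inhibitor of protein phosphatases, stood at 10.2, 5.49 and 7.11 CPM in control and 14.5, 13.9 and 13.6 CPM in stress (0.88, 0.20 to 1.56). TAFA1, a secreted brain protein of the chemokine-like TAFA family, had 39.2, 41.7 and 42.7 CPM against 51.5, 52.9 and 72.2 CPM (0.52). KCNK4, the background potassium channel TRAAK, had 17.0, 18.6 and 18.9 CPM against 29.1, 22.9 and 25.2 CPM (0.50). Stress 3 was the highest library for TAFA1 and stress 1 for KCNK4. S1PR2, a receptor for sphingosine-1-phosphate, stood at 6.62, 6.57 and 7.86 CPM and 11.2, 9.28 and 8.99 CPM (0.49). The zinc finger genes ZBTB22 and ZBTB47 had log2 fold changes of 0.61 and 0.43. ATP5MC1, a ring subunit of ATP synthase, had 5.55, 2.72 and 2.46 CPM against 7.66, 5.83 and 7.35 CPM (0.95), but its symbol is shared by more than one gene model in the table, and its counting is uncertain.

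**Figure D3:**
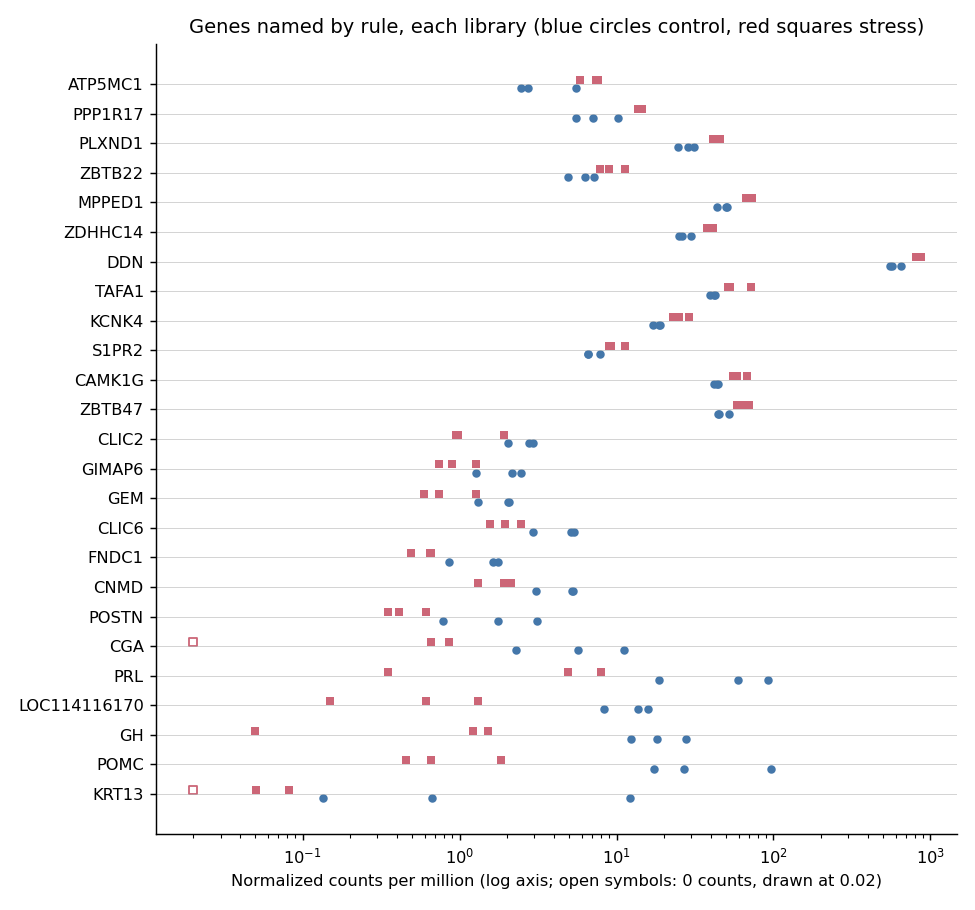
Normalized CPM (log axis) of the 24 genes named by rule and of LOC114116170 in each dorsal library, control as blue circles and stress as red squares, with 0 counts drawn open at 0.02. The groups do not overlap for any gene because the rule required it; the gap is widest for POMC, and the stress squares of DDN lie at 871, 812 and 854.

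Genes of cortisol reception showed no shared direction. Of 15 tested genes for receptors, their chaperones and cortisol activation, 0 had an unadjusted p under 0.05 and 8 were positive, with a median of 0.01. NR3C1 stood at 32.3, 50.5 and 48.2 CPM in control and 31.1, 50.5 and 65.9 CPM in stress (log2 fold change 0.17, 95% interval -0.76 to 1.10), with the lowest value in library 1 of both groups. NR3C2 stood at 69.5, 79.7 and 78.8 CPM in control and 81.2, 92.6 and 123 CPM in stress. Every stress library was above every control library, by little in stress 1, and the interval of -0.15 to 0.91 around 0.38 included 0. Its unadjusted p was 0.142 in the 12-library fit and 0.0264 in the blocked fit of dorsal libraries (edgeR adjusted p = 0.865). HSD11B1, which regenerates active cortisol inside cells, stood at 4.14, 4.70 and 5.47 CPM in control and 3.68, 3.65 and 3.27 CPM in stress, also without overlap and in the opposite direction (-0.43, -0.93 to 0.07).

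Genes that glucocorticoids induce in many tissues did not move together either. Of 24 tested, 0 had an unadjusted p under 0.05, 8 were positive and the median was -0.08. FKBP5, the co-chaperone that lowers receptor affinity for cortisol, stood at 24.3, 65.4 and 34.3 CPM in control and 21.7, 32.3 and 39.5 CPM in stress (-0.41, -1.37 to 0.55). SGK1, a kinase of salt and glucose transport, had 26.7, 81.2 and 75.9 CPM against 34.4, 83.2 and 98.1 CPM (0.23, -1.18 to 1.64), and both genes were lowest in library 1 of each group. TSC22D3, known as GILZ, stood at 285, 260.3 and 234 CPM in control and 264, 234 and 249 CPM in stress, which leaves the narrow interval of -0.43 to 0.30. PER1, a clock gene under direct receptor control, stood at 79.1, 66.9 and 71.6 CPM and 89.3, 61.2 and 48.2 CPM (-0.66 to 0.40). ARRDC2, an arrestin-domain gene, was lower in every stress library, with 41.4, 47.5 and 40.4 CPM against 27.7, 35.5 and 11.6 CPM (-0.79, -1.84 to 0.27). CDKN1A, the cell cycle inhibitor p21, stood at 50.5, 25.5 and 37.6 CPM in control and 93.1, 37.3 and 41.9 CPM in stress (0.60, -0.33 to 1.53). Stress 1 stood far above the rest, and without it the log2 fold change was 0.064.

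**Figure D4:**
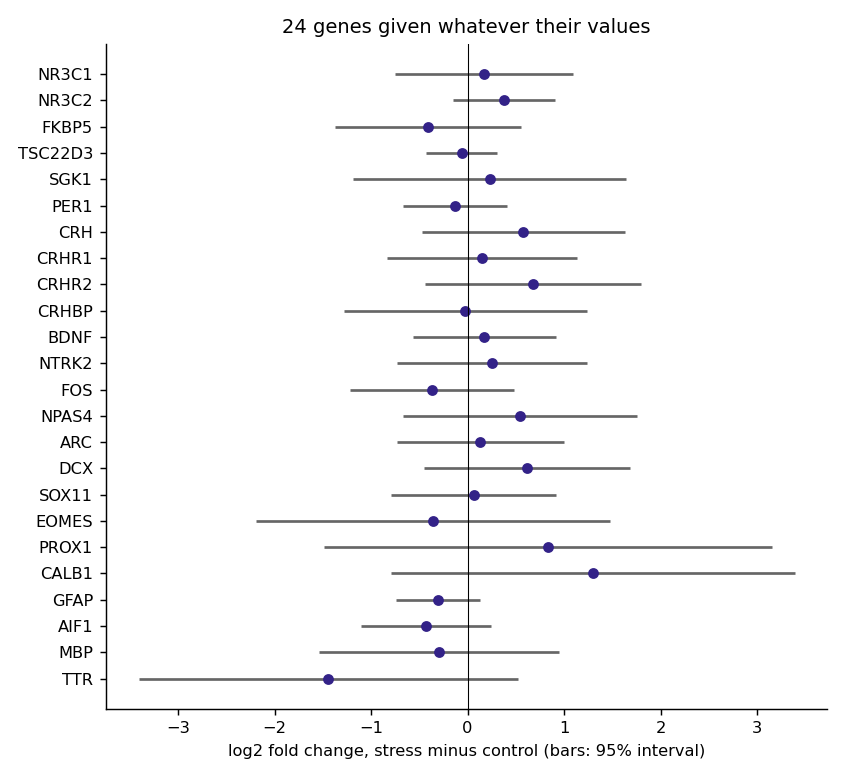
Log2 fold change (stress minus control, points) with its 95% interval (bars) for 24 genes of the stress axis, plasticity, neurogenesis and cell types, shown whatever their values. All 24 intervals include 0; that of TSC22D3 (-0.43 to 0.30) is among the narrowest, and that of PROX1 (-1.49 to 3.15) is among the widest.

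CRH, the peptide that starts the stress axis, was scarce in this tissue. Of 13 tested genes for CRH, PACAP, vasopressin and their receptors 9 were positive, 0 had an unadjusted p under 0.05, and the median was 0.15. It was 0.00823 without stress 1 and 0.018 without both libraries numbered 1. The summed level of the list was 429.9 to 444 CPM in control and 447 to 495 CPM in stress, without overlap. Most of that sum was ADCYAP1R1, the receptor for PACAP, which by itself overlapped at 421, 415 and 393 CPM in control and 463, 416 and 421 CPM in stress. CRH stood at 0.748, 0.652 and 0.703 CPM in control and 1.24, 1.06 and 0.817 CPM in stress, each stress library above each control one, with an interval of -0.47 to 1.63. In counts this is 38, 29 and 18 against 25, 21 and 10. Its receptors CRHR1 (0.15, -0.83 to 1.13) and CRHR2 (0.68, -0.44 to 1.80) and the binding protein CRHBP (-0.02, -1.28 to 1.24) overlapped between groups. AVPR1A, a vasopressin receptor of the brain, stood at 0.886, 1.17 and 0.860 CPM in control and 0.497, 0.659 and 0.817 CPM in stress. It was lower in each stress library (-0.57, -1.79 to 0.64).

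Growth factor signalling and activity-driven genes overlapped between groups as lists. BDNF, a neurotrophin needed for synaptic plasticity, stood at 29.1, 41.4 and 43.2 CPM in control and 33.4, 38.4 and 56.5 CPM in stress (0.17, -0.57 to 0.91), and its receptor NTRK2 at 49.9, 77.8 and 55.3 CPM and 46.4, 72.1 and 99.9 CPM (0.26, -0.73 to 1.24). Stress 3 was the highest library for both. Of 21 immediate early genes 13 were positive (median 0.13) and 0 had an unadjusted p under 0.05. FOS, a marker of recent neuronal firing, stood at 17.5, 16.8 and 33.7 CPM in control and 13.3, 17.1 and 22.2 CPM in stress (-0.37, -1.22 to 0.48). FOSB, whose protein builds up under repeated stimulation, stood at 5.91, 6.57 and 6.53 CPM and 8.96, 10.3 and 7.76 CPM, higher in each stress library (0.51, -0.02 to 1.05). DUSP6, a phosphatase that limits ERK signalling, did so as well, with 47.8, 42.6 and 45.6 CPM against 55.0, 57.5 and 67.2 CPM (0.40, -0.02 to 0.82). ARC (0.13, -0.73 to 1.00) and NPAS4 (0.54, -0.66 to 1.75), both tied to synaptic activity, were at a few CPM, which widens their intervals.

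DCX, SOX11 and EOMES, markers of newborn neurons and their progenitors, overlapped between the groups. DCX, doublecortin, which marks immature neurons, stood at 0.394, 0.832 and 0.977 CPM in control and 0.995, 0.912 and 1.47 CPM in stress, or 20, 37 and 25 counts against 20, 18 and 18 counts (0.62, -0.45 to 1.68). SOX11 stood at 9.61, 9.85 and 8.01 CPM and 7.41, 7.81 and 13.6 CPM (0.06), and EOMES, of intermediate progenitors, at 1.63, 2.29 and 2.42 CPM and 3.23, 0.710 and 0.981 CPM (-0.36). EOMES ranged wider in stress than in control. Of 20 tested neurogenesis genes 11 were positive with a median of 0.04, and 1 had an unadjusted p under 0.05, against 0.854% of all genes. That gene was PROM1, a membrane protein of neural stem cells and ependyma, at 0.670, 1.08 and 0.899 CPM in control and 0.846, 3.14 and 3.35 CPM in stress, with stress 1 inside the control range (1.46, 0.28 to 2.64). The summed level of the list was 2324 to 2355 CPM in control and 2043 to 2157 CPM in stress, without overlap. That sum leans on abundant members such as STMN2, given below. The mean log2 level of the list overlapped between groups, and differed by 0.08, -0.02 and -0.06 log2 units (stress minus control) in pairs 1 to 3. Of the list members 1 was higher and 2 were lower in every stress library, against 2.38% and 2.75% of all genes. These 3 were chosen after their values were seen. SOX4, a transcription factor of young neurons, stood at 30.7, 28.7 and 32.2 CPM in control and 36.8, 37.0 and 50.3 CPM in stress (0.44, -0.29 to 1.16). STMN2, a tubulin-binding protein of growing axons, stood at 815, 861 and 868 CPM and 806, 812 and 813 CPM (-0.07, -0.35 to 0.22), and the other lower gene was CALB2, given below with the interneuron markers.

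Among hippocampal subfields, CA1 markers had the highest median. CA1 pyramidal cells are the output neurons of the hippocampus. Of 9 tested markers 8 were positive, with a median of 0.54, and 1, MPPED1, had an unadjusted p under 0.05 and was higher, against 0.315% of all genes. The mean of the list was higher in every stress library than in every control library, and by 0.70, 0.29 and 0.40 log2 units in pairs 1 to 3. Among all 40 lists the mean was higher in every stress library for 5 and lower in every one for 1. POU3F1 had 0.276, 1.06 and 1.21 CPM against 1.54, 1.77 and 2.04 CPM (1.08), where control 1 was far below the rest. Without both libraries numbered 1 the median of the list was 0.21. The CA3 list (7 of 9 positive, median 0.14), the CA2 list (5 of 8, 0.03) and the dentate granule cell list (9 of 13, 0.23) overlapped between groups. CALB1, calbindin, of granule cells, stood at 0.158, 0.247 and 0.703 CPM and 0.945, 0.659 and 1.06 CPM (1.30, -0.79 to 3.39).

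Genes of the postsynaptic side tended to positive values. Of 19 tested genes of the postsynaptic density, the protein scaffold under excitatory synapses, 18 were positive, 13 were higher in stress in all 3 pairs, against 13.8% of all genes, and the median was 0.21. DLG4, the scaffold PSD-95, stood at 212, 242 and 244 CPM in control and 319, 277 and 311 CPM in stress, without overlap (0.38, 95% interval 0.01 to 0.74, unadjusted p = 0.0455). PPP1R9B, the spine protein spinophilin, had 476, 453 and 443 CPM against 598, 525 and 516 CPM (0.26). Both showed their highest value in stress 1. CAMK2A, the kinase of long-term potentiation, stood at 2279, 2396 and 2359.5 CPM in control and 2670.3, 2697 and 2986 CPM in stress, again without overlap (0.25, -0.16 to 0.66). Without both libraries numbered 1 the median of the list was 0.21, and with counts thinned it was 0.21. None of the 19 passed the adjusted test in edgeR, and 1, DLG4, had an unadjusted p under 0.05 and was higher, against 0.315% of all genes.

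Transmitter receptors and vesicle genes leaned the same way. Of 22 glutamate receptor genes 20 were positive (median 0.22) and 0 had an unadjusted p under 0.05, and of 21 genes of vesicle release 15 were positive (median 0.14). Without stress 3 the median of glutamate receptors was 0.050. Pair 2 was an exception for glutamate receptors, the mean differences in pairs 1 to 3 being 0.23, -0.03 and 0.38 log2 units. For 13 subunits of the GABA-A receptor, the main inhibitory receptor, the median was 0.19 and the pairs differed in sign (0.06, -0.19 and 0.57). That median was -0.00286 without stress 3. Monoamine receptors, which read serotonin, noradrenaline and dopamine, had 16 of 21 positive and a median of 0.35, and their mean was higher in each stress library than in each control one. They are scarce, with sums of 47.9 to 53.2 CPM in control and 51.2 to 60.5 CPM in stress. DRD5, a dopamine receptor of the D1 class, stood at 0.158, 0.135 and 0.0782 CPM and 0.298, 0.355 and 0.409 CPM (1.44, -0.25 to 3.13), or 8, 6 and 2 counts against 6, 7 and 5 counts. ADRA1A, an adrenoceptor, stood at 0.610, 0.540 and 0.469 CPM and 0.796, 0.862 and 1.39 CPM (0.89).

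Neuronal identity markers differed in part. The excitatory neuron list had 9 of 11 positive (median 0.17) and a mean that was higher in each stress library, whereas 11 of 20 inhibitory neuron markers were positive (median 0.07). CALB2, calretinin, a calcium-binding protein of interneurons and mossy cells, stood at 126, 97.4 and 101 CPM in control and 76.0, 56.9 and 24.02 CPM in stress. Each stress library was below each control library, and stress 3 was the lowest (-1.05, -2.11 to 0.01, unadjusted p = 0.0527). In the blocked fit of dorsal libraries its unadjusted p was 0.00152 (edgeR adjusted p = 0.645). Neuropeptide genes were evenly split, with 9 of 19 positive and a median of -0.01; the 1 with an unadjusted p under 0.05 was POMC, described above.

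Lists of mature glia had medians near that of all genes. Myelin and oligodendrocyte markers had 8 of 16 positive (median -0.00), astrocyte markers 7 of 18 (-0.02) and microglial markers 7 of 18 (-0.04). MBP, of the myelin sheath, stood at 3699.5, 2384 and 3566 CPM in control and 2792, 3137 and 1917 CPM in stress (-0.30, -1.54 to 0.94). GFAP, the intermediate filament of astrocytes, stood at 10680.0, 11261 and 12253 CPM and 9537, 11114 and 6965 CPM, with stress 3 the lowest (-0.31, -0.74 to 0.13). AIF1, the microglial protein Iba1, stood at 72.8, 50.8 and 54.4 CPM and 53.3, 48.5 and 30.1 CPM (-0.43, -1.10 to 0.24). Stress 3 was lowest for all 3 genes. AQP4, the water channel of astrocyte endfeet, ran the other way, with 12.9, 26.4 and 25.5 CPM in control and 10.2, 47.6 and 81.9 CPM in stress, the lowest values being those of libraries 1 (1.10, -1.23 to 3.44). Oligodendrocyte precursor markers lay higher, with 11 of 13 positive and a median of 0.23, among them GPR17 at 2.76, 6.84 and 6.60 CPM and 4.97, 7.502 and 17.9 CPM (0.90, -0.53 to 2.33).

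Vessel and ependymal lists had medians near that of all genes. Endothelial markers had a median of -0.03 (7 of 16 positive), mural cells -0.03 (6 of 13) and ependymal cilia -0.03 (7 of 16). MFSD2A, the lipid transporter of the blood-brain barrier, stood at 19.7, 19.7 and 16.7 CPM in control and 16.3, 14.1 and 11.2 CPM in stress, lower in each stress library (-0.43, -0.95 to 0.09). Blood was scarce in all dissections: of 9 erythrocyte genes 2 were tested, and HBB, a globin, stood at 1.28, 0.0450 and 0.391 CPM and 3.53, 0.152 and 0.572 CPM. Striatal markers had a median of 0.18 (0.00292 with thinned counts) and thalamic markers 0.10. The mean log2 level of the striatal list was higher in each stress library than in each control one. The summed striatal level was 147 to 189 CPM in control and 148 to 213 CPM in stress, and the summed thalamic level 202 to 223 CPM and 161 to 175 CPM, the latter without overlap. CALB2, described above, is a member of the thalamic list.

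Interferon and inflammation lists had small negative medians. Of 24 interferon response genes 7 were positive (median -0.18) and of 22 genes of inflammation and complement 6 were (-0.15), with 0 at an unadjusted p under 0.05 in either. Without stress 1 the median of the inflammation list was 0.039. TNF, a cytokine, stood at 0.394, 0.540 and 2.74 CPM in control and 0.199, 0.203 and 0.899 CPM in stress (-1.54, -3.47 to 0.40), highest in library 3 of both groups. ICAM1, an adhesion molecule that inflamed endothelium shows, was lower in each stress library, with 6.56, 10.1 and 6.29 CPM against 4.97, 5.27 and 4.98 CPM (-0.59, -1.37 to 0.19). Ribosomal protein genes were positive in 2 of 33 cases with a median of -0.16, but their means differed by -0.10, 0.04 and -0.43 in pairs 1 to 3, so that pair 3 differed most. Without control 1 their median was 0.10. Respiratory chain genes had 5 of 21 positive (-0.08), with a median of 0.075 without control 1. Heat shock genes had 11 of 21 positive (0.01), cholesterol synthesis 14 of 21 (0.04), the circadian clock 12 of 19 (0.10) and thyroid hormone signalling 7 of 11 (0.04). CRYAB, a small heat shock protein of glia, stood at 991, 697 and 804 CPM in control and 687, 658 and 509 CPM in stress, lower in each stress library (-0.43, -1.20 to 0.34).

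**Figure D5:**
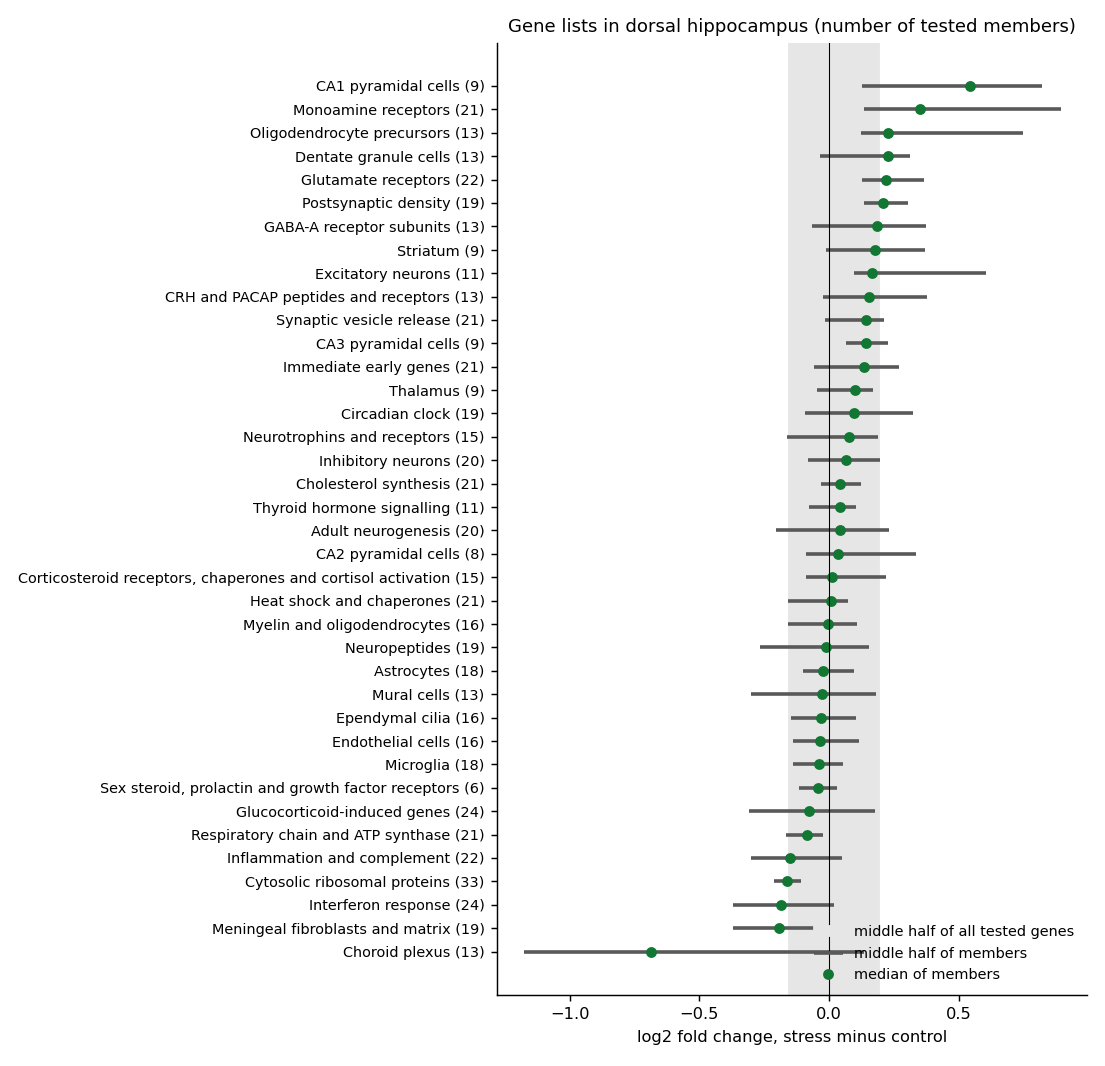
Median log2 fold change (stress minus control, points) and quartiles (bars) of the tested members of the gene lists, with the number of members. The pituitary list, whose median is -3.66, and the erythrocyte list are not drawn. The shaded band spans the quartiles of all 17806 genes, and the line marks 0. CA1 markers lie at 0.54 and choroid plexus markers at -0.69, outside the band of -0.16 to 0.19.

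Ventral hippocampus of the same ewes gave the same overall count. There edgeR called 0 genes (142, or 0.797%, at an unadjusted p under 0.05), DESeq2 called 1 and limma-voom 0. For the difference of the stress effects between dorsal and ventral tissue, 0 genes were called by edgeR, DESeq2 or limma-voom, and 46 (0.258%) had an unadjusted p under 0.05 in edgeR. These fits took the 12 libraries as independent, with no term for the ewes that both regions share. The genes named by rule were chosen on their dorsal values, so both regions are set side by side without a test. The ventral fold change had the same sign for 11 of the 12 higher genes and 11 of the 12 lower genes. Over all tested genes it had the same sign for 11948 of 17806. Values are given for the 4 of these 12 higher and 12 lower genes that are among those 46. They were thus picked for a difference between regions. POMC had a ventral log2 fold change of -1.42 against -5.54 in dorsal tissue; its ventral levels were 4.74, 3.82 and 3.92 CPM in control and 1.47, 3.04 and 0.209 CPM in stress. Ventral control libraries of POMC were thus below the lowest dorsal control. KRT13, whose dorsal difference lies in control 3, had ventral control libraries at 9.88, 52.6 and 20.6 CPM and a ventral fold change of -0.09. GEM was 0.71 in ventral against -1.05 in dorsal tissue, and CAMK1G -0.24 against 0.49. ARC and FOSB, named above for other reasons, are among those 46 as well. The ventral log2 fold change of ARC was 1.52 against 0.13 in dorsal tissue, and that of FOSB -0.32 against 0.51. As 0 genes passed the adjusted test of the difference in edgeR, a stress effect particular to dorsal tissue was not shown for any gene.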

How the data were processed

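Polyadenylated RNA of dorsal and ventral hippocampus, extracted with TriReagent, was sequenced with a stranded TruSeq mRNA kit, per the labels' protocols. The deposited values are raw gene counts made by the authors, whole numbers in 1 column per library. Per the submitters' processing notes, TopHat2 2.1.1 and featureCounts 2.0.0 were used; SAMtools 1.9, Bowtie2 2.3.5.1, FastQC and bcl2fastq 2.20 are listed too. Genome build, annotation, use of strand and handling of multi-mapped reads: not given in the sources used here. Whether the counts separate sense from antisense partners is therefore not known, and close copies are uncertain. Symbols follow the table, and 412 placeholder names were replaced through gene IDs in a RefSeq table of the assembly ARS-UI_Ramb_v3.0.

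Counts were filtered with filterByExpr, scaled with TMM and modelled with edgeR 4.0.16 (quasi-likelihood, robust) in R 4.3.3, with 4 group means over 12 libraries. P-values were adjusted by Benjamini-Hochberg over 17806 genes. The SE was taken from the fold change and F (absolute value over the root of F), and intervals use the model's degrees of freedom. DESeq2 1.42.0, limma 3.58.1 (voom), other scalings, filters, thinned counts, covariates, each library left out and replicate blocks were alternatives; the script was tested on simulated data. Both dorsal-only blocks, the block within region, the ribosomal covariate and leaving out both libraries numbered 1 were chosen after seeing the data. No library was taken as a duplicate: among all pairs of the 12 libraries the lowest chi-square per degree of freedom was 12.4 (dorsal control 2 with dorsal stress 2), and within a group it was 21.6.

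Deviations from the group mean of log2 CPM correlated across genes by 0.712, 0.322 and 0.285 between same-numbered dorsal libraries, each over 0.1, so the numbers were taken as pairs. This is a sign in the data and not in the labels. It is clear for number 1 alone: control 2 correlated by 0.568 with stress 3, and control 3 by 0.243 with stress 2. A pairing with numbers 2 and 3 exchanged was not fitted.

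Named genes are the 12 highest and 12 lowest fold changes with a symbol, an unadjusted p under 0.05, at least 1 CPM on average and no overlap between groups, the 3 smallest p in each list, and 24 genes given whatever their values. LHB, FSHB, PITX1, SOX4, STMN2, ADCYAP1R1 and genes without a name were added after seeing their values. The text names a part of the genes selected. The members, the 40 lists (668 genes, 602 tested, some in several lists) and the rules were chosen with earlier results of these data known. Lists are described by counts and medians and were not tested as sets.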

Additional observations from a re-analysis of the deposited data

How the results depend on the processing

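The count of called genes moved with the fit. With all 12 libraries the replicate block called 0 genes, and the blocked fit of dorsal libraries called 5, or 45, 74 and 24 with pair 1, 2 or 3 left out, where 1 residual degree of freedom among the libraries remains. DESeq2 called 1 gene and limma-voom with quality weights 4 (POMC, GH, LOC114112438 and LOC105604063), against 0 by edgeR. In the fit with quality weights 2132 genes (12%) had an unadjusted p under 0.05, against 124 in limma-voom without them. The other 17 settings, among them RLE size factors, other filters, thinned counts and each library left out in turn, called 0, and the difference between regions stayed at 0 called in all 18 settings run. Of the refitted fold changes of the 84 genes named, 1818 kept their sign and stayed uncalled, 37 became called and 54 changed sign, all of genes with an interval across 0. The sign changed in limma-voom for SOX11 (-0.031), CRHBP (0.19) and CRHR1 (-0.034), in limma-voom with quality weights for SOX11 (-0.035), CRHR1 (-1.15), HBB (-0.13) and BDNF (-0.057) and with a replicate block over all 12 libraries for SOX11 (-0.031) and CRHBP (0.15). It did so with thinned counts for SOX11 (-0.058) and CRHBP (0.015), with the choroid plexus covariate for CRHBP (0.37), FOS (0.21), HBB (-0.21) and FSHB (0.44) and in the blocked fit of dorsal libraries for CRHBP (0.12). Further changes of sign came with the replicate block within region for CRHBP (0.11), without both libraries numbered 1 for CRHR1 (-0.49) and with the ribosomal covariate for SOX11 (-0.075), NR3C1 (-0.039) and SGK1 (-0.039). The rest came in the blocked fit without pair 1 for CRHR1 (-0.65), in the blocked fit without pair 2 for CRHBP (0.10), FSHB (0.24) and FKBP5 (0.024) and in the blocked fit without pair 3 for NTRK2 (-0.11), SOX11 (-0.36), NR3C1 (-0.029), CRHBP (0.54), CRHR1 (-0.00849), PER1 (0.024) and PROX1 (-0.038). Leaving out each dorsal library in turn, the log2 fold change ranged from -0.041 to 0.50 for NTRK2, -0.27 to 0.22 for SOX11, -0.10 to 0.41 for NR3C1, -0.36 to 0.39 for CRHBP, -0.57 to 0.030 for FOS, -0.13 to 0.56 for SGK1, -0.12 to 0.59 for ARC, -0.29 to 0.55 for CRHR1, -0.41 to 0.053 for PER1, -0.73 to 2.78 for HBB, -0.079 to 0.32 for BDNF, -0.53 to 0.059 for FSHB, -1.33 to 0.00750 for EOMES, -0.68 to 0.088 for FKBP5 and -0.13 to 0.011 for TSC22D3. Medians of gene lists stayed within 1 SD of the list score between libraries in 852 refits and moved further in 68. Leaving out 1 dorsal library changed the sign of the median for 24 of 40 lists. As deposited, each control library is deeper than each stress library; with all thinned to one depth, 0 genes were called and POMC stood at -5.93, GH at -4.19 and DDN at 0.52. Genes under 1 CPM carry a median standard error of 0.85.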

Other observations

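Some of the largest fold changes at moderate levels belonged to genes without a name, which the naming rule leaves out; those below were chosen after their values were seen. LOC105604063, a long noncoding RNA, stood at 80.8, 73.6 and 62.4 CPM in dorsal control and 136, 125 and 124 CPM in dorsal stress libraries 1 to 3, a log2 fold change of 0.83 (95% interval 0.38 to 1.27), with ventral levels of 25.9, 27.8 and 23.6 CPM and 46.9, 28.4 and 33.6 CPM. The dorsal groups were far apart against their spread, and limma-voom with quality weights called it (adjusted p = 0.0325), while edgeR did not. In that weighted fit 12% of all genes had an unadjusted p under 0.05.

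Several unnamed genes were near 0 in one condition and had similar fold changes in both regions of the same ewes. LOC101108033, which codes for a protein, stood at 0.158, 10.7 and 12.9 CPM in dorsal control and 0, 0.0507 and 0.0817 CPM in dorsal stress, and at 10.7, 11.6 and 0.112 CPM and 0.0774, 0 and 0.0298 CPM in ventral tissue. One control library in each region was as low as the stress libraries, number 1 in dorsal and number 3 in ventral tissue. LOC114116170, called in the blocked fit, had ventral levels of 0.817, 22.8 and 21.98 CPM in control and 0.426, 0.237 and 1.64 CPM in stress, with ventral control 1 inside the stress range. LOC114111483 ran the other way, at 1.12, 0.180 and 0.117 CPM in dorsal control and 4.88, 6.08 and 7.52 CPM in dorsal stress, and at 0.433, 0.496 and 0.168 CPM and 0.155, 9.998 and 8.199 CPM in ventral tissue, where stress 1 was as low as control. Single pools of these 3 genes were thus either high or near 0. The pool of LOC101108033 that went against its group carried a different number in each region.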
